A study of Mus musculus with 4 samples.

Results

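The Siglec and CD300 receptor families were represented by 8 listed mouse genes, Siglec1, Siglece, Siglech, Cd33, Cd300a, Cd300lb, Cd300ld and Cd300lf, out of 16739 genes with a count in any library. The genes were found by matching their symbols to the Entrez identifiers of the deposited tables, and all 8 had counts in all 4 libraries. RNA was measured in tumor-associated macrophages (TAMs), sorted as CD45+ CD11b+ F4/80+ cells from subcutaneous B16-F10 tumors 16 days after the melanoma cells were injected into C57BL/6 mice aged 6 to 8 weeks. The groups were 2 libraries from WT mice and 2 from mice labelled Trim24-/-, in which floxed Trim24 was crossed to LysM-Cre, a recombinase under the lysozyme M promoter that is active in myeloid cells. The latter 2 libraries are called Trim24-deficient here after their label. Whether the WT littermates carried Cre or a floxed allele is not given in the sources used here.

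Siglecs are lectins of the immunoglobulin superfamily that bind sialic acid on the cell's own surface or on neighboring cells. CD300 receptors carry a single immunoglobulin domain, and several of them bind lipids that dying cells expose. Within both families, inhibitory members carry tyrosine motifs (ITIMs) that recruit the phosphatases SHP-1 and SHP-2, whereas activating members have short tails and signal through adaptors such as DAP12 and the Fc receptor gamma chain.

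The libraries held 4476122 to 5172407 expected counts. The label itself was checked first. Trim24 was at expected counts of 28.84 and 10.16 in WT and of 16.11 and 2 in the Trim24-deficient libraries, so the groups overlapped. The gene-level count does not separate reads of the deleted part from other reads. Xist was at 10.9 and 6.46 CPM (counts scaled to the TMM-adjusted library total) in WT and at 437 and 256 CPM in the Trim24-deficient libraries, and 4 Y-linked genes ran the opposite way, so genotype and sex cannot be told apart for any gene below. The study's methods describe sex-matched mice, which these transcripts do not show. The sort was reflected in its markers, as Adgre1, which encodes F4/80, was at 1040 to 1300 CPM, Itgam (CD11b) at 489 to 1170 CPM and Ptprc (CD45) at 534 to 796 CPM. A call required an FDR under 0.05 together with a change of more than 1.5-fold.

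Of the 8 genes, 7 passed the filter on low counts and were tested, and 0 were called by edgeR's quasi-likelihood test, against 0.372% of all 11302 tested genes. Cd300lf and Siglece, both inhibitory receptors, had the largest differences toward the Trim24-deficient libraries, 2.17-fold and 1.75-fold. At an unadjusted p under 0.05 stood these 2 of the 7, beside 12.2% of all tested genes. The remaining 5 tested genes had log2 fold changes between -0.36 and 0.20. The median log2 fold change of the 7 was 0.18, and that of all tested genes was -0.01.

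**Figure D1:**
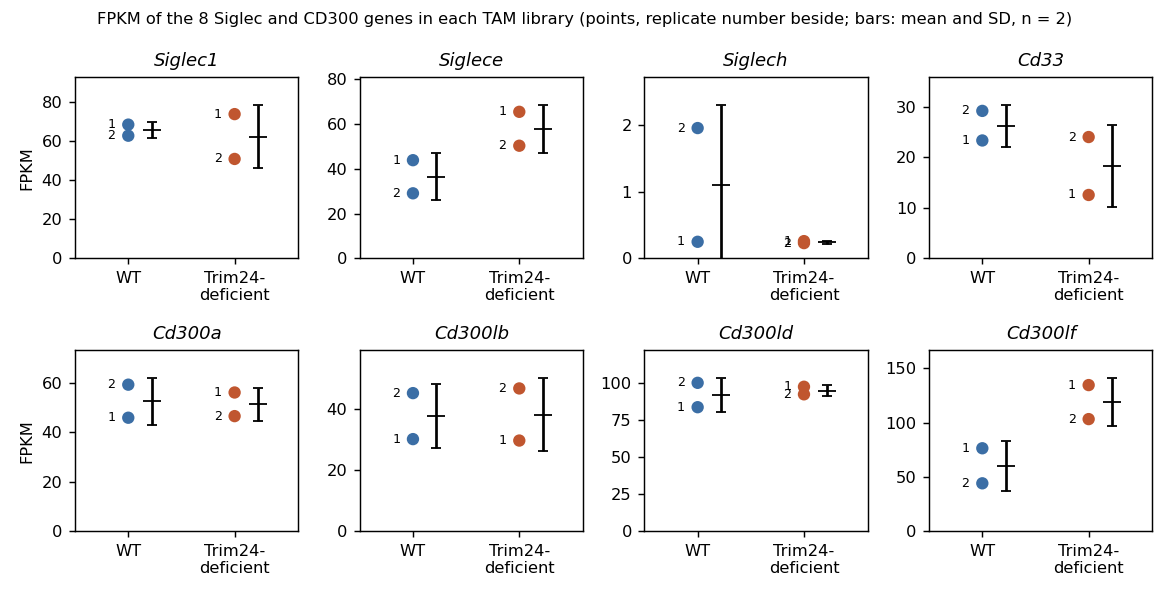
FPKM (vertical axes, each from 0 and on its own scale) of each gene in the 2 WT and 2 Trim24-deficient libraries, with the replicate number beside each point and bars for the mean and SD of 2 libraries. The lower SD of Siglech in WT runs past the axis at 0. Both Trim24-deficient points lie above both WT points for Cd300lf and Siglece, whereas the other 6 genes overlap on this scale and Siglech reaches no more than 1.96 FPKM.

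Levels were compared between genes as FPKM, which is scaled to transcript length. Averaged over the 4 libraries, Cd300ld was highest at 93.1 FPKM and was followed by Cd300lf at 89.5, Siglec1 at 63.8, Cd300a at 52.0, Siglece at 47.2, Cd300lb at 37.9, Cd33 at 22.3 and Siglech at 0.675 FPKM. The ranges of each gene and the next one overlapped from Cd300ld down to Cd300lb. These ranges pool the groups and do not pair the genes within a library. Read library by library, Siglec1 was above Cd300a each time, while the other overlapping neighbors changed order. Cd300lb lay apart from Cd33, with a lowest value of 29.69 against a highest of 29.23 FPKM, and Cd33 lay apart from Siglech. The order was not the same within the groups. In WT, Cd300ld (91.6 FPKM) was followed by Siglec1 (65.5 FPKM), and Cd300lf came after them at 60.3 FPKM. The latter 2 overlapped in WT. Cd300lf was above Siglec1 in WT replicate 1 (76.37 against 68.28 FPKM) and below it in WT replicate 2 (44.18 against 62.62 FPKM). In the Trim24-deficient libraries Cd300lf came first at 119 FPKM, with a lowest value of 103.15 above the 97.18 FPKM of the higher Cd300ld library. Apart from Siglech, each gene stood between the percentiles 71.3 and 95.9 of all genes in FPKM in every library.

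Siglece occupies chr7:43648882-43672044 of GRCm38 (minus strand, 7 exons in its longest basic GENCODE transcript). It encodes an inhibitory Siglec of myeloid cells with ITIM signaling through SHP-1 and SHP-2. Its FPKM was 43.86 and 29.07 in the WT libraries and 65.46 and 50.32 in the Trim24-deficient libraries. Both Trim24-deficient values were the higher ones, the lower of them exceeding the higher WT library 1.25-fold in CPM, while the WT libraries differed from each other 1.57-fold. The normalized count was 64.6 ± 20.3 CPM in WT and 113 ± 19.7 CPM in the Trim24-deficient libraries (SD, n = 2 each). By edgeR's quasi-likelihood test its log2 fold change was 0.81 ± 0.25 (SE) with an adjusted p of 0.225, and 4.29% of all tested genes had a larger one. With a library left out, the lone library of its group is assumed to vary like the other group. The spread then comes from that other group and, in edgeR, also from all tested genes. So fitted with edgeR, Siglece was called without Trim24-deficient replicate 2 (log2 fold change 0.98, adjusted p = 0.00541) and not without Trim24-deficient replicate 1 (0.62, adjusted p = 0.136), WT replicate 1 (1.19, adjusted p = 0.149) or WT replicate 2 (0.52, adjusted p = 0.999).

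Cd33 (chr7:43527399-43537424, minus strand, 6 exons) encodes a small Siglec of myeloid cells. It was at 23.37 and 29.23 FPKM in WT and at 12.57 and 24.05 FPKM in the Trim24-deficient libraries. Trim24-deficient replicate 1 was the lowest library, and replicate 2 lay between the WT values. The log2 fold change was -0.36 (SE 0.29, adjusted p = 0.65, edgeR), a difference smaller than that between the Trim24-deficient libraries. Its direction rested on single libraries, being 0.04 without Trim24-deficient replicate 1 and -0.91 without replicate 2. In both fits the spread came from the 2 WT libraries and from all tested genes.

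Siglec1 (chr2:131067801-131086778, minus strand, 21 exons) encodes sialoadhesin (CD169), a long adhesion Siglec of macrophages without an ITIM. Its FPKM was 68.28 and 62.62 in WT and 73.64 and 50.76 in the Trim24-deficient libraries, so that the latter held both the highest and the lowest value. The log2 fold change was 0.07 (SE 0.23, adjusted p = 0.927, edgeR) and turned to -0.07 when libraries were scaled by their totals. It had the most counts of the 8 genes, 1714 to 2363 per library.

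Siglech (chr7:55768154-55779448, plus strand, 5 exons) encodes a DAP12-coupled Siglec that marks plasmacytoid dendritic cells. The expected counts were 3 and 21.92 in WT and 3.17 and 3.01 in the Trim24-deficient libraries. WT replicate 2 stood apart, and the other 3 libraries were at about the floor of 3 counts, which equals 0.58 to 0.67 CPM by counting error alone. The gene fell below the filter on low counts and was not tested. Several other genes of plasmacytoid dendritic cells were also near the floor. Ly6d was at 1 to 5 counts, Ccr9 at 2.12 to 6.21 and Klk1 at 0 to 4. Cox6a2 was at 2 and 4 counts in WT and at 9 and 12 in the Trim24-deficient libraries, Pacsin1 at 10 and 2 against 47 and 7, and Spib at 8.16 and 15.99 against 11.08 and 9.08, so the list had no common highest library. The highest in FPKM of that list, Irf8 (131 FPKM) and Tcf4 (8.39 FPKM), are also expressed by macrophages, and the whole list summed to 385 to 400 CPM in WT and 449 to 576 CPM in the Trim24-deficient libraries. In these sorted bulk samples, fewer cells of a type and less RNA per cell cannot be told apart.

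The CD300 genes other than Cd300lg (chr11:102041511-102055617) form a cluster on chromosome 11. Its 4 listed members span 114889152 (Cd300a) to 115135372 (Cd300lf). Cd300lf (chr11:115116214-115135372, minus strand, 7 exons) encodes an ITIM-bearing receptor that binds phosphatidylserine and ceramide and is the entry receptor of murine norovirus. Its FPKM was 76.37 and 44.18 in WT and 134.4 and 103.15 in the Trim24-deficient libraries. The groups did not overlap, and the lower Trim24-deficient library exceeded the higher WT library 1.48-fold in CPM, although the WT libraries differed from each other 1.81-fold. The normalized count was 108 ± 44.2 CPM in WT and 235 ± 40.7 CPM in the Trim24-deficient libraries (SD, n = 2 each). By edgeR's quasi-likelihood test its log2 fold change was 1.12 ± 0.28 (SE) with an adjusted p of 0.168, and 2.11% of tested genes had a larger one. With a library left out, the other group and all tested genes gave the spread. Calls over all genes rose or fell with the library removed. For Cd300lf the call depended on single libraries and on the tool. It was reached without Trim24-deficient replicate 1 (log2 fold change 0.93, adjusted p = 0.0227, edgeR), without Trim24-deficient replicate 2 (1.29, adjusted p = 0.000719, edgeR) and with DESeq2 (1.13, adjusted p = 0.0189), and missed without WT replicate 1 (1.63, adjusted p = 0.0534, edgeR) and without WT replicate 2 (0.75, adjusted p = 0.999, edgeR).

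Cd300a (chr11:114889152-114901946, plus strand, 7 exons) encodes the other inhibitory CD300 receptor of the list, which binds phosphatidylserine and phosphatidylethanolamine. It was at 45.91 and 59.26 FPKM in WT and at 56.1 and 46.56 FPKM in the Trim24-deficient libraries. In FPKM both Trim24-deficient values lay between the WT values. In CPM, the scale of the test, Trim24-deficient replicate 1 was the highest library (210 and 260 CPM in WT, 276 and 233 CPM in the others). The log2 fold change was 0.12 (SE 0.21, adjusted p = 0.858, edgeR), and -0.04 with library totals as the scale. At 2 standard errors to either side the change ran from -0.30 to 0.53, which leaves out the size seen for Cd300lf.

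Cd300lb and Cd300ld encode activating receptors, coupled to DAP12 and to the Fc receptor gamma chain, respectively. Cd300lb (chr11:114922779-114934371, minus strand, 4 exons) was at 30.16 and 45.19 FPKM in WT and at 29.69 and 46.72 FPKM in the Trim24-deficient libraries. In CPM the libraries of 1 group differed from each other more than the groups did, 1.44-fold in WT and 1.6-fold in the Trim24-deficient libraries. The log2 fold change between the groups was 0.18 ± 0.26 (SE, adjusted p = 0.828, edgeR).

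Cd300ld (chr11:114982443-114989886, minus strand, 4 exons) was at 83.44 and 99.81 FPKM in WT and at 97.18 and 92.09 FPKM in the Trim24-deficient libraries. It was the steadiest of the 8, with a highest library 1.25 times the lowest in CPM. In CPM both Trim24-deficient libraries lay above both WT libraries, by 1.05-fold at the nearest, which FPKM did not show, and the log2 fold change was 0.20 (SE 0.19, adjusted p = 0.72, edgeR). With Cd300lf and Siglece it made 3 of 7 tested genes whose Trim24-deficient libraries both lay above WT in CPM, where 21.4% of all tested genes did so. In the opposite direction stood 0 of 7, against 23.0% of all tested genes.

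Reads of near-identical paralogs can be divided between genes by the authors' counting. Expected counts were not whole numbers (tolerance 0.005) in all 4 libraries for Siglece, Cd33, Cd300a, Cd300ld and Cd300lf, which RSEM gives where reads are divided between genes, whereas Siglec1 and Cd300lb had whole counts throughout. Siglech had such counts in 3 of 4 libraries, WT replicate 2 among them. The values of these 6 genes therefore carry some uncertainty of assignment.

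The CD300 genes outside the list gave a wider view of the family. Of 8 further CD300 genes, 4 passed the filter, 0 were called by edgeR's quasi-likelihood test, 0 had an unadjusted p under 0.05, and their median log2 fold change was 0.12. Cd300c2, an activating receptor, was the most abundant at 212 FPKM, with a log2 fold change of 0.25 (adjusted p = 0.628, edgeR). It was at 215 and 224 CPM in WT and at 276 and 246 CPM in the Trim24-deficient libraries. Both Trim24-deficient libraries thus lay above both WT libraries in CPM for 1 of the 4, against 21.4% of all tested genes. Both lay below for 0 of the 4, against 23.0%. Cd300e, another activating receptor, was at 60.6 FPKM, and its values of 128 and 72.1 CPM in WT and 209 and 73.6 CPM in the Trim24-deficient libraries overlapped between the groups. Cd300ld5 (log2 fold change -0.31) and Cd300ld3 (-0.01) had overlapping groups. All CD300 genes together took 0.102% and 0.108% of the counts in WT and 0.132% and 0.109% in the Trim24-deficient libraries. Cd300lf made up 14.1% and 7.7% of these CD300 counts in WT and 19.1% and 17.8% in the Trim24-deficient libraries, and the groups did not overlap. Cd300a and Cd300ld each made up between 18.1% and 25.9% in every library.

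**Figure D2:**
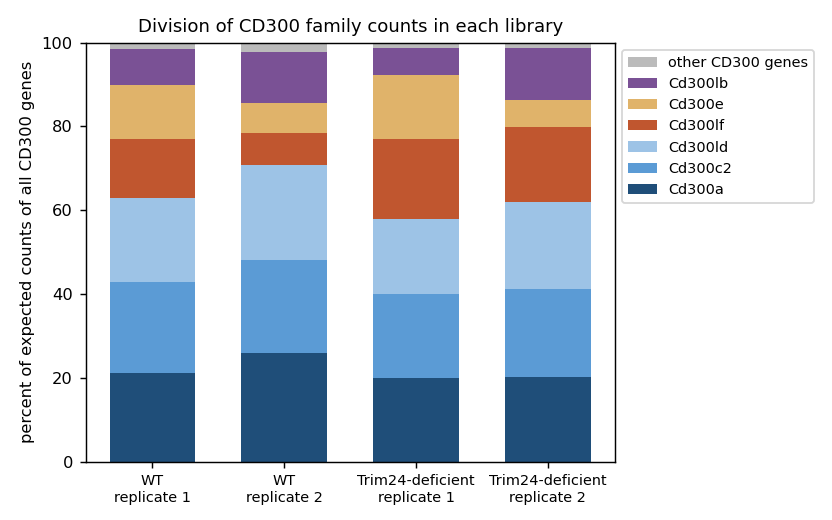
Percent of the expected counts of all CD300 genes (vertical axis) taken by each gene in the 4 libraries, with the small genes joined as other. The Cd300lf segment takes 14.1% and 7.7% in WT and 19.1% and 17.8% in the Trim24-deficient libraries.

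Of 5 further Siglec genes, Cd22 and Mag passed the filter and 0 were called by edgeR's quasi-likelihood test, with 1 at an unadjusted p under 0.05. Cd22, an inhibitory Siglec best known from B cells, was at 8.12 FPKM with a log2 fold change of 0.14 (adjusted p = 0.853, edgeR). Mag, the myelin-associated glycoprotein, was at 6.39 FPKM, with 13.9 and 8.75 CPM in WT and 21.5 and 19.3 CPM in the Trim24-deficient libraries (log2 fold change 0.84, adjusted p = 0.308, edgeR). Of the B cell list, Cd79b was the most abundant at 207 to 266 counts per library, and Cd79a and Ms4a1 were at 0 to 8 counts. Siglecf and Siglecg were at 2 to 10 counts per library.

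The genes through which these receptors signal were measured beside them. Of 15 adaptors, phosphatases and kinases, 14 were tested and 1, Fgr, was called, against 0.372% of all tested genes. Above 0 in log2 fold change lay 9, against 5580 of all 11302, and the median was 0.31. Fgr, a Src family kinase of myeloid cells, was at 48.3 and 49.0 CPM in WT and at 114 and 109 CPM in the Trim24-deficient libraries (log2 fold change 1.19, standard error 0.18, adjusted p = 0.0331, edgeR). Fcer1g, the Fc receptor gamma chain, was the most abundant at 3870 FPKM (log2 fold change 0.42, adjusted p = 0.465, edgeR). Tyrobp, which encodes DAP12, was at 2060 FPKM (0.57, adjusted p = 0.377, edgeR), and Ptpn6, which encodes SHP-1, at 346 FPKM (0.57, adjusted p = 0.373, edgeR). In each of these 3, both Trim24-deficient libraries lay above both WT libraries in CPM. The same held for 6 of the 14 tested genes of the list, against 21.4% of all tested genes. In 1 of the 14 both lay below, against 23.0% of all tested genes. Ptpn11, which encodes SHP-2, was at 25.0 and 23.8 CPM in WT and at 20.0 and 15.2 CPM in the Trim24-deficient libraries (-0.47, adjusted p = 0.476, edgeR).

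**Figure D3:**
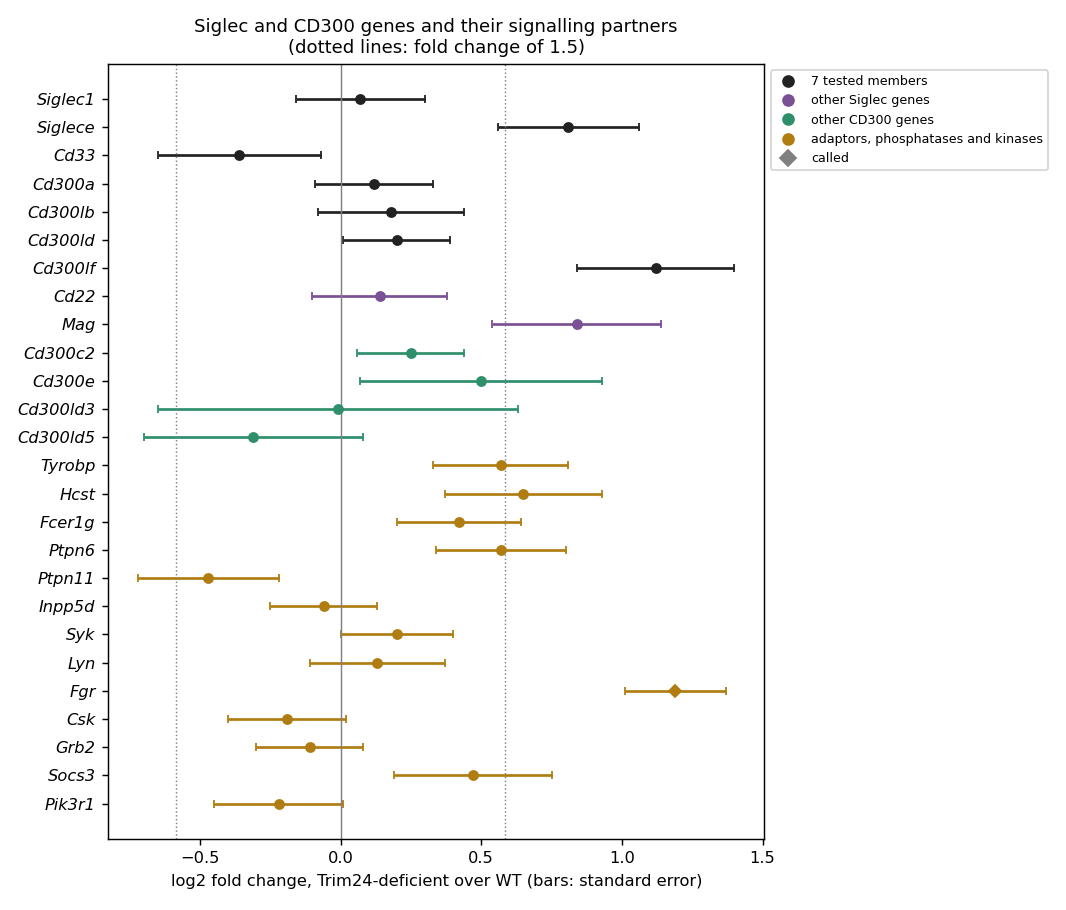
Log2 fold change of Trim24-deficient over WT libraries (horizontal axis) with its standard error, for the 7 tested members, the other tested Siglec and CD300 genes and 13 of their tested signaling partners, with dotted lines at a fold change of 1.5. Cd300lf at 1.12 and Siglece at 0.81 stand rightmost among the members, and Fgr at 1.19 is the diamond that marks a called gene.

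Sialic acid, the ligand of Siglecs, is made and removed by enzymes of the same cells. All 18 listed genes of sialic acid synthesis, transfer and removal were tested, and 0 were called by edgeR's quasi-likelihood test, with 1 at an unadjusted p under 0.05 (St3gal5, named after its value was seen). Above 0 lay 5 and below it 13, with a median log2 fold change of -0.04. Nans, the sialic acid synthase, was the highest at 49.1 FPKM (log2 fold change 0.04, adjusted p = 0.964, edgeR). St6galnac4, a sialyltransferase, was at 42.5 FPKM (0.42, adjusted p = 0.425, edgeR), the sialidase Neu1 at 35.5 FPKM (-0.01, adjusted p = 0.989, edgeR) and St3gal4 at 17.2 FPKM (0.17, adjusted p = 0.82, edgeR).

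The summed monocyte and neutrophil markers were higher in the Trim24-deficient libraries, as Cd300lf and Siglece were, though not every gene of these lists was. The 6 monocyte genes summed to 1030 and 1120 CPM in WT and to 1970 and 2200 CPM in the Trim24-deficient libraries, with 6 of 6 above 0 in log2 fold change and 1 called by edgeR. In 4 of these 6 both Trim24-deficient libraries lay above both WT libraries, whereas F13a1 (514 and 475 CPM in WT, 320 and 1160 CPM in the others) and Vcan overlapped. Of all 11302 tested genes, 5580 lay above 0 and 0.372% were called. Both Trim24-deficient libraries lay above both WT libraries for 21.4% of all tested genes. Ly6c2 was at 365 FPKM and Plac8 at 350 FPKM. The 9 neutrophil genes summed to 177 and 206 CPM in WT and to 272 and 411 CPM in the Trim24-deficient libraries. Of these, 4 were tested and 0 called by edgeR, with 3 at an unadjusted p under 0.05, against 12.2% of all tested genes. Cxcr2 ran the other way, at 63.6 and 84.0 CPM in WT and 42.8 and 76.8 CPM in the others (log2 fold change -0.30). Of the same list S100a8 was at 123 FPKM and S100a9 at 37.8 FPKM, while the defining Ly6g was listed at 0 in both WT libraries and at 9.41 and 4.47 counts in the others, and Ngp and Camp were at 0 to 3 counts. The 10 macrophage genes summed to 16600 to 18700 CPM in WT and 19700 to 20300 CPM in the Trim24-deficient libraries. The part of monocyte or neutrophil RNA in the Cd300lf and Siglece values was not tested. The T and NK cell list was higher in replicate 1 of either group, at 154 and 86.1 CPM in WT and 324 and 84.7 CPM in the Trim24-deficient libraries. Melanoma genes summed to 736 to 780 CPM in WT and 581 to 788 CPM in the Trim24-deficient libraries. Of these 5 genes, 4 lay below 0 in log2 fold change and 1 above, and 0 were called by edgeR. Both Trim24-deficient libraries lay below both WT libraries for 3 of the 5, against 23.0% of all tested genes, and above for 0. Conventional dendritic cell genes summed to 37.2 to 79.4 CPM over the 4 libraries, B cell genes to 46.3 to 55.4 CPM, stromal and endothelial genes to 12.3 to 38.8 CPM, eosinophil genes to 11.1 to 14.8 CPM and mast cell genes to 0.208 CPM at most.

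Profiles over the 4 libraries were compared by the root-mean-square difference of log2 CPM, each gene centered on its own mean. Among the members, Cd300a and Cd300ld were the closest pair (0.0878), followed by Siglece and Cd300lf (0.185), and Cd33 and Cd300lf were the farthest apart (0.991). Among all tested genes of mean log2 CPM of at least 3, Plbd1 (0.0659) and Slc2a1 (0.0716) were nearest to Cd300lf, and Bhlhe40 (0.0109) and Pfkfb3 (0.0443) were nearest to Siglece. Within 0.1 lay 5 genes for Cd300lf and 26 for Siglece, against 571 for Cd300ld and 326 for Cd300a. Nearest to Siglec1 were Adap1 and Nt5c3, to Cd33 Zfp870 and Ccne2, to Cd300a Mbnl2 and Pfdn4, to Cd300lb Arglu1 and Dtx3, and to Cd300ld Stam2 and Pitpnb. With 4 libraries many genes share a profile, and these values are a description.

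The start regions of the genes were read for sequence motifs. The genes were listed with earlier results of these data known, so their windows are not a choice independent of expression. RefSeq windows of GRCm38, from 250 bases before to 50 bases after the gene start, matched 7 of the 8 genes, and Siglec1 had none. Each window was searched on both strands for GAGGAA, the core bound by PU.1, the ETS factor of the macrophage lineage, and for an interferon response element (GAAANNGAAA), a STAT6 element (TTCNNNNGAA) and an AP-1 element (TGANTCA). The PU.1 core was found in 6 of the 7 windows, and in 28.3% of all 32851 windows in the table. The other motifs were found in 0 of the 7, against 3.44%, 6.95% and 7.81% of all windows. At such shares 7 windows often hold none, so the absence says little. The windows of Siglece and Cd300lf, the genes with the largest differences, are shown 5′ to 3′ on the strand of the gene, with GAGGAA or its reverse complement in capitals. That of Siglece, at chr7:43660112-43660411 on the minus strand, held 3 copies, and that of Cd300lf, at chr11:115133943-115134242 on the minus strand, held 2. Both windows surround a start inside the outer bounds of the gene given above.
Siglece: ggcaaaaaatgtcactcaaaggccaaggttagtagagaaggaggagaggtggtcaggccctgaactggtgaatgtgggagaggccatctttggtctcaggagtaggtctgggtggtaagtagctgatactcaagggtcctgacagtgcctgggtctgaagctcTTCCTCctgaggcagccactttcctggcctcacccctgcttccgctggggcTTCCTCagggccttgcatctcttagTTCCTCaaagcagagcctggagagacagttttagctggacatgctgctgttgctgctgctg
Cd300lf: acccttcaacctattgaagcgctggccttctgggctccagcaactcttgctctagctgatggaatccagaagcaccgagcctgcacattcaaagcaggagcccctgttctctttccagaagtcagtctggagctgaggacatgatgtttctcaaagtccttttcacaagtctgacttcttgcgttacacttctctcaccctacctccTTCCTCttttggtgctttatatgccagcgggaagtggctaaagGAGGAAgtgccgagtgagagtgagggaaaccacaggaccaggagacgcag
The copies in Siglece began 87, 36 and 11 bases before the start, and those in Cd300lf began 43 bases before it and at the start itself. Cd33, Siglech, Cd300a and Cd300ld held 1 copy each. Cd300lb held none at a mean of 37.9 FPKM, and Siglech held its copy at 0.675 FPKM, so the count of copies did not sort the genes by level.

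**Figure D4:**
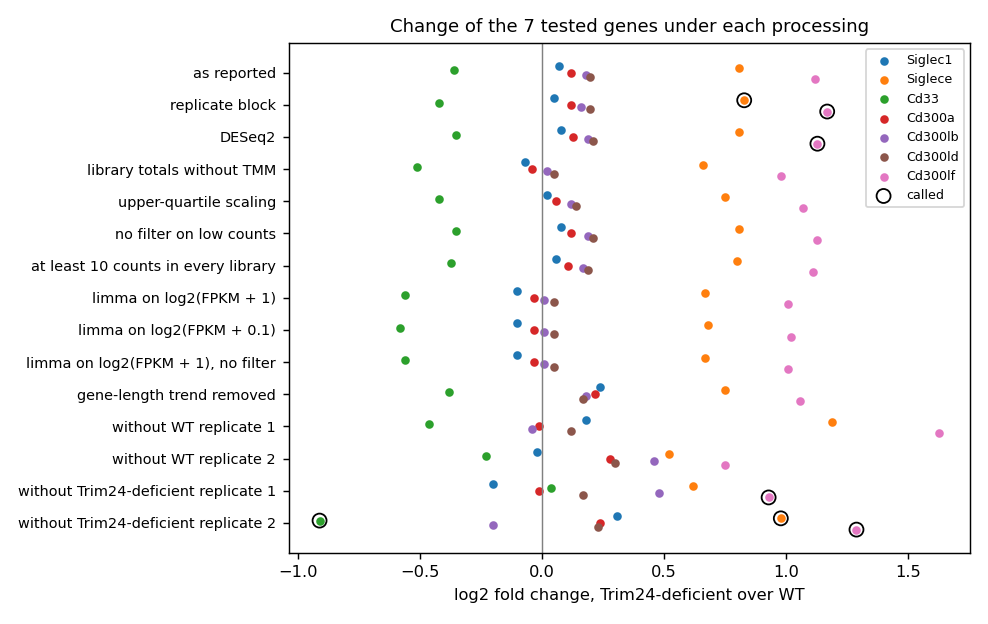
Log2 fold change of Trim24-deficient over WT (horizontal axis) of the 7 tested genes under the reported processing and each alternative (vertical axis), with rings around called values. Cd300lf stays between 0.75 and 1.63 and Siglece between 0.52 and 1.19, whereas Siglec1, Cd300a, Cd300lb and Cd33 have values on both sides of 0.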

How the data were processed

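RNA-seq libraries of TAMs, 2 WT and 2 Trim24-deficient, were analysed. Mapping by the authors used Bowtie on the GRCm38 (mm10) genome, and RSEM gave the gene values. The deposited tables hold expected counts, which are not normalized, FPKM, which the authors scaled to transcript length and library total, and the gene length. Genes missing from a table were set to 0. RefSeq gave symbols for 16698 of 16739 genes.

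Expected counts were rounded, filtered with filterByExpr, scaled by TMM (factors 0.943 to 1.08) and tested for the label with edgeR 4.0.16 (glmQLFit, glmQLFTest, R 4.3.3), with Benjamini-Hochberg adjustment over all 11302 tested genes. Standard errors are the log2 fold change divided by the square root of F. With 2 libraries per group the smallest exact two-sided permutation p is 0.333. The labels do not say that replicates came from separate mice, so p-values measure the spread between these libraries. For each gene, edgeR drew that spread largely from all tested genes, with a prior of 7.41 degrees of freedom against 2 residual ones. The scripts were tested on simulated data.

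The members, gene lists and tests were chosen with earlier results of these data known. All members were named, and of other lists the called genes and the 4 with the highest mean FPKM (2 for marker lists, printed for the monocyte, neutrophil and plasmacytoid dendritic cell lists). Single-gene results of 3 genes are not reported here. Genes named beyond that (defining or contrary markers, Ptpn11, those at the floor) were chosen after their values were seen. Alternatives were a replicate block, DESeq2 1.42.0, other scalings, filters and a correction for gene length, limma 3.58.1 on log2 FPKM with a pseudocount of 1 or 0.1, and each library left out.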

Additional observations from a re-analysis of the deposited data

How the results depend on the processing

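Siglece and Cd300lf kept a higher level in the Trim24-deficient libraries, and Cd300ld a log2 fold change above 0, under all 14 alternatives. For these genes both Trim24-deficient libraries lay above both WT libraries in CPM, so leaving 1 library out could hardly turn the direction. All alternatives drew on the same libraries, so the kept direction is no independent evidence. Of the members, 0 were called as reported, 2 with the replicate number as a block (Siglece, log2 fold change 0.83, adjusted p = 0.00402; Cd300lf, 1.17, adjusted p = 5.46e-06; edgeR), 1 with DESeq2, and 0 to 3 with a library left out. The labels do not say that equal numbers mark a shared litter, and deviations of same-numbered libraries from their group means correlated at 0.17 across genes. Under the block, with 1 residual degree of freedom, edgeR took the spread wholly from all genes, so those p-values do not measure a gene's own spread between libraries. Over all genes, 42 calls (33 higher) became 634 with the block, 156 with DESeq2, 23 (14 higher) with limma on log2(FPKM + 1), 20 (11 higher) with a pseudocount of 0.1, 0 of 16739 with limma unfiltered (1636 at an unadjusted p under 0.05), and 25 to 652 with a library left out, highest without Trim24-deficient replicate 2 and lowest without WT replicate 2. Siglec1 turned to -0.07 and Cd300a to -0.04 with library totals without TMM, and to -0.10 and -0.03 with limma on FPKM under both pseudocounts and unfiltered. The median of all genes was -0.15 with library totals and -0.13 and -0.15 with limma at pseudocounts of 1 and 0.1, against -0.01 as reported. With a library left out, Siglec1 ranged from -0.20 to 0.31, Cd33 from -0.91 to 0.04, Cd300a from -0.01 to 0.28 and Cd300lb from -0.20 to 0.48. Of the members, Siglech alone fell below the filter on low counts.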

Other observations

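Siglec1 is known as a gene induced by type I interferon, and 15 other genes of that response were read beside it. All 15 were tested and 0 were called by edgeR's quasi-likelihood test, while 10 had an unadjusted p under 0.05, 14 had a log2 fold change above 0 and 11 had both Trim24-deficient libraries above both WT libraries. Of all 11302 tested genes, 12.2% had such a p, 5580 lay above 0 and 21.4% had both Trim24-deficient libraries above WT. Their median log2 fold change was 0.56, against 0.07 for Siglec1 and -0.01 for all tested genes. Bst2, which encodes tetherin, was the highest at 424 FPKM with a change of 0.11 on the log2 scale (adjusted p = 0.871, edgeR). Irf7, a transcription factor of the response, was at 316 FPKM, with 470 and 415 CPM in WT and 813 and 655 CPM in the Trim24-deficient libraries (0.73, adjusted p = 0.219, edgeR). Ifit3 was at 179 FPKM (0.38, adjusted p = 0.477, edgeR) and Oas1a at 156 FPKM (0.56, adjusted p = 0.305, edgeR). The difference between Siglec1 and these genes was not tested.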
